A study of Homo sapiens with 6 samples.

Results

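Cohesin is the protein ring that holds sister chromatids together from replication until mitosis and that extrudes loops of chromatin in interphase. The 10 genes described here encode its ring (SMC1A, SMC3, RAD21 and the alternative subunits STAG1 and STAG2), its loader (NIPBL and MAU2) and the proteins that bind the ring to release or regulate it (WAPL, PDS5A and PDS5B). They were taken by gene symbol from a count table of 58735 genes, and all 10 were found once each and passed the filter on low counts. The cells were HCT-8, an established line grown from a human colorectal adenocarcinoma, and their RNA was sequenced in bulk. The 3 libraries of the 5-FU group came from cells given 5-fluorouracil, which blocks thymidylate synthase and is incorporated into RNA and DNA, at its 10% inhibitory concentration. The 3 control libraries came from untreated cells; the labels name no vehicle, and the sources used here give neither the molar dose nor the duration. Nothing in the labels states that replicates were grown as separate cultures, so p-values here reflect only how far these 3 libraries per group differ, a spread that may be technical.

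Loading by NIPBL and MAU2 opens the ring on DNA, and the ATPase heads of SMC1A and SMC3 are bridged by RAD21, the kleisin that separase cuts at anaphase. WAPL, together with PDS5A or PDS5B, opens the ring again and takes it off chromatin. During S phase the acetyltransferases ESCO1 and ESCO2 modify SMC3, and sororin (CDCA5) then holds WAPL back, which makes cohesion last until mitosis. STAG2, one of the alternative ring subunits, is recurrently mutated in several human cancers.

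Gene counts summed to between 18459939 and 20613228 in the 5-FU libraries and to between 21659252 and 23495607 in the control libraries. Mitochondrially encoded transcripts took 25.5% to 28.5% of counts after 5-FU and 4.66% to 4.88% in control. An alternative fit left the mitochondrial genes out. There the log2 fold change was -2.515 for RAD21 (-2.5 in the main fit), 0.857 for MAU2 (0.873) and -0.244 for NIPBL (-0.229), still not called. Any other part of this shift in the results below was not tested. Levels were therefore also compared as ratios inside a library, which no scaling can alter. Of 6 epithelial markers, 3 were lower after 5-FU (CDX2, EPCAM and KRT8) and 3 were not called (KRT18, VIL1 and CDH1), with log2 fold changes between -1.14 and 0.15. KRT8, called lower in 12 of 18 alternatives, was the most abundant, at 1905 ± 403 CPM after 5-FU and 2828 ± 517 CPM in control (CPM, the count scaled to library size and TMM factor; mean ± SD, n = 3 per group). Of 7 fibroblast, leukocyte and endothelial markers only COL1A1, PECAM1 and VWF had enough counts to be tested; the 7 together had 685 to 1307 counts per 5-FU library and 359 to 425 per control library, mostly of COL1A1, and DCN had 0 in every library. The part of these transcripts in the results was not tested. In such bulk samples, fewer cells of one kind and less RNA per cell cannot be told apart.

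Transcripts of 8 of the 10 genes fell after 5-FU, 1 rose (MAU2), and 1 (NIPBL) did not pass the test. The test was the quasi-likelihood test of edgeR over 19771 genes with a Benjamini-Hochberg adjusted p under 0.05. By this rule 70.2% of all tested genes were called, 33.9% lower and 36.3% higher, so a call on its own is common here. Among the 5239 tested genes whose mean level lay within the range of the 10 (38.3 to 186 CPM), 57.3% were lower and 18.5% higher. The median log2 fold change of the 10 genes was -1.04, against 0.09 over all tested genes and -0.45 over those of like level. Scaling matters to this balance: with upper-quartile factors the median of all genes moved to 0.45 and 67.5% of calls were higher, against 51.7% with TMM factors, while on the FPKM table with a filter on low values 37.7% were higher. Together the 10 genes made up 0.0685% to 0.0704% of counts in 5-FU libraries and 0.137% to 0.149% in control libraries; of non-mitochondrial counts the shares were 0.0944% to 0.0958% after 5-FU and 0.144% to 0.156% in control.

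**Figure D1:**
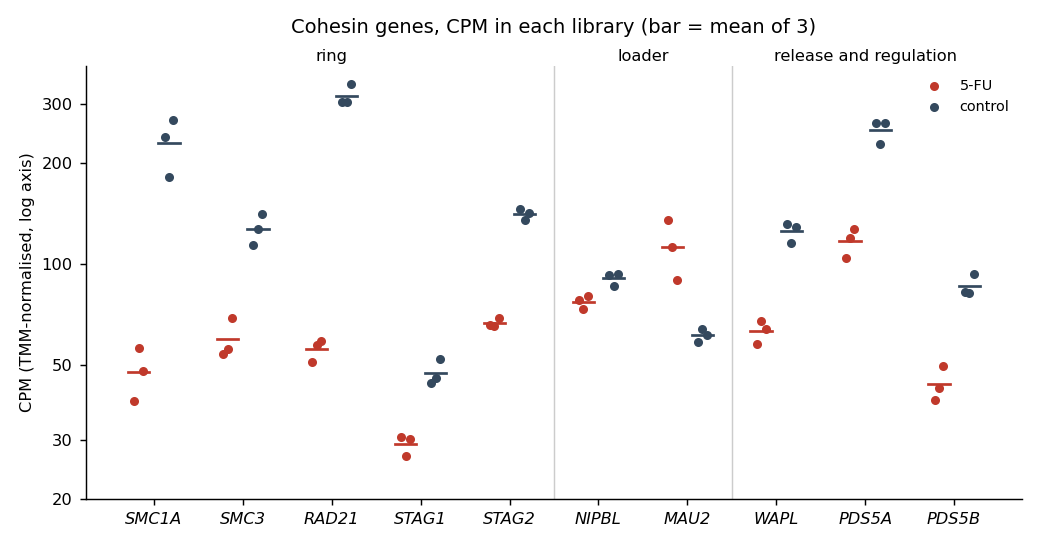
CPM of each cohesin gene in each library on a log axis, with 5-FU libraries in red left of control libraries in dark blue and a bar at the mean of 3. The 5-FU points lie below the control points for 9 genes, narrowly for NIPBL, and above them for MAU2.

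The 5 ring genes all fell, though by very different amounts. RAD21 (ENSG00000164754; GRCh38 chromosome 8, 116845935 to 116874866, minus strand) fell the furthest, with 51.2, 57.5 and 59.0 CPM in the 5-FU libraries against 303, 303 and 343 CPM in the control libraries. That is a 5.66-fold decrease (log2 fold change -2.50, SE 0.13, edgeR adjusted p = 4.92e-07), and only 1.28% of tested genes had a log2 fold change as low or lower. UTP23 and the antisense gene RAD21-AS1 overlap 14.2% of its exonic bases from the other strand, and whether counting used strand is not stated. RAD21-AS1 itself had at most 3 counts in any library, while the level of UTP23 was not looked at.

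SMC1A (ENSG00000072501; chromosome X, 53374149 to 53422728, minus strand), the hinge and ATPase partner of SMC3, fell almost as far. It had 39.2, 56.2 and 48.0 CPM in the 5-FU libraries against 239, 182 and 268 CPM in the control libraries. The decrease was 4.81-fold (log2 fold change -2.26, SE 0.18, edgeR adjusted p = 1.98e-06). Control replicate 2 was the lowest control for SMC1A, as it was for the cohesion factors CDCA5 and ESCO2 and for the condensin subunit SMC4 described further on.

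SMC3 (ENSG00000108055; chromosome 10, 110567691 to 110604636, plus strand), the subunit whose acetylation marks cohesive rings, fell less than its partner. It had 54.1, 55.9 and 69.3 CPM in the 5-FU libraries against 114, 127 and 141 CPM in the control libraries, 2.13-fold lower (log2 fold change -1.09, SE 0.14, edgeR adjusted p = 2.93e-05). The proportion of the pair that forms the arms of the ring was followed inside each library. In FPKM, the count per kilobase of exon over the authors' constant for the library, the ratio of SMC1A to SMC3 was 0.295, 0.410 and 0.282 in the 5-FU libraries against 0.859, 0.581 and 0.775 in the control libraries. Every 5-FU ratio lay below every control ratio, a 2.25-fold lower ratio (exact two-sided permutation p = 0.1, the smallest that 3 against 3 can give; 0.12 adjusted over the 6 pairs compared). The 6 pairs were chosen with earlier results of these data known, and their p-values do not allow for that choice. The ratio of RAD21 to SMC3 is not one of the 6 pairs, was chosen after its values were seen and was not tested. It was 0.654, 0.710 and 0.589 in the 5-FU libraries against 1.84, 1.64 and 1.68 in the control libraries.

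The STAG subunits, which bind RAD21 and give rise to separate STAG1 and STAG2 forms of the complex, both fell. STAG2 (ENSG00000101972; chromosome X, 123960212 to 124422664, plus strand) had 66.0, 65.4 and 69.3 CPM in the 5-FU libraries against 146, 136 and 142 CPM in the control libraries. The decrease was 2.11-fold, and libraries of a group differed little (log2 fold change -1.08, SE 0.11, edgeR adjusted p = 6.99e-06). STAG1 (ENSG00000118007; chromosome 3, 136336233 to 136752403, minus strand) fell the least of the called genes, with 30.6, 26.8 and 30.2 CPM in the 5-FU libraries against 44.2, 45.8 and 52.2 CPM in the control libraries. It was 1.62-fold lower (log2 fold change -0.70, SE 0.12; adjusted p = 0.000359 in edgeR); exons of PCCB on the opposite strand cover 21.2% of its exonic bases.

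The ratio of STAG2 to STAG1 in FPKM was 2.07, 2.34 and 2.20 in the 5-FU libraries against 3.16, 2.84 and 2.61 in the control libraries, with no overlap (exact two-sided permutation p = 0.1; 0.12 adjusted over the 6 pairs). STAG3, the germline paralog that serves meiotic cohesin, went the other way: 32.2, 28.3 and 21.7 CPM in the 5-FU libraries against 7.40, 9.85 and 8.19 CPM in the control libraries. The rise was 3.23-fold (log2 fold change 1.69, SE 0.18; adjusted p = 1.08e-05 in edgeR). STAG3 took 23.9%, 22.4% and 17.0% of the summed FPKM of the 3 paralogs in the 5-FU libraries, against 3.55%, 4.87% and 3.82% in the control libraries. The share of STAG2 was 51.3%, 54.4% and 57.0% in the 5-FU libraries and 73.3%, 70.3% and 69.5% in the control libraries, while the share of STAG1 lay between 23.2% and 25.9% after 5-FU and between 23.2% and 26.6% in control. STAG3 counts are uncertain, since STAG3-like pseudogenes can share its reads and exons of PVRIG on the same strand cover 18.7% of its exonic bases, those of CASTOR3 on the opposite strand 13.6%. One such pseudogene, STAG3L5P, chosen after its values were seen and given as a description, had a log2 fold change of 1.05. On the log2(FPKM + 1) scale the log2 fold change of STAG3 was 0.97.

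**Figure D2:**
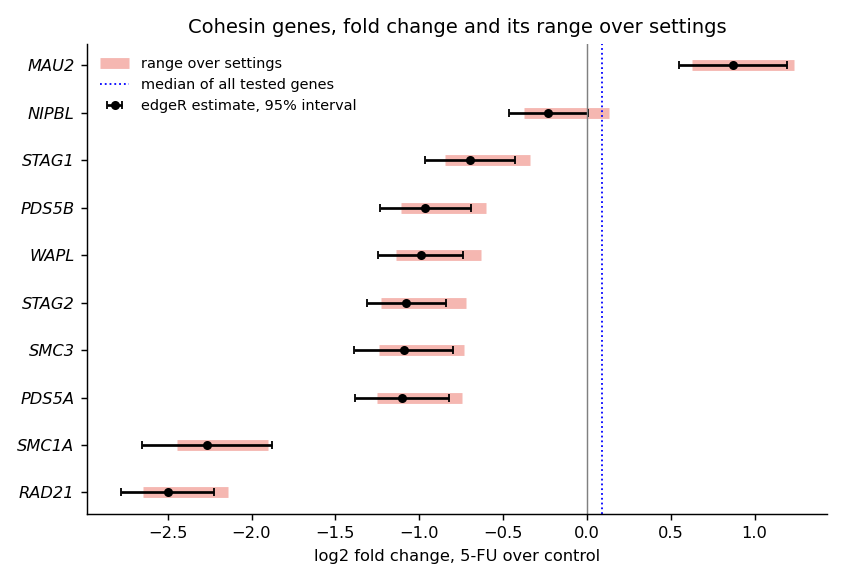
Log2 fold change of 5-FU over control for each cohesin gene (points), with the 95% interval of the edgeR estimate (black bars), the range over all settings tried (pink) and the median of all tested genes (dotted line). RAD21 at -2.50 and SMC1A at -2.26 stand apart from the 6 genes between -1.10 and -0.70, NIPBL straddles 0 over the settings, and MAU2 lies at 0.87.

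The genes that release or regulate the ring fell by nearly the same factor. WAPL (ENSG00000062650; chromosome 10, 86435256 to 86521815, minus strand), which unloads cohesin, had 57.8, 67.7 and 64.0 CPM in the 5-FU libraries against 132, 115 and 129 CPM in the control libraries, 1.99-fold lower (log2 fold change -0.99, SE 0.12, edgeR adjusted p = 2.05e-05). PDS5A (ENSG00000121892; chromosome 4, 39822863 to 39977956, minus strand), a scaffold for WAPL and for sororin, had 104, 119 and 127 CPM in the 5-FU libraries against 263, 228 and 263 CPM in the control libraries, 2.15-fold lower (log2 fold change -1.10, SE 0.13, edgeR adjusted p = 1.85e-05). Its paralog PDS5B (ENSG00000083642; chromosome 13, 32586427 to 32778019, plus strand) had 39.4, 42.9 and 49.8 CPM in the 5-FU libraries against 82.3, 82.1 and 93.2 CPM in the control libraries, 1.95-fold lower (log2 fold change -0.96, SE 0.13, edgeR adjusted p = 4.12e-05). For all 3 genes the groups did not overlap. PDS5A kept most of the paralog pool, with 73.4% to 75.1% of the summed FPKM of PDS5A and PDS5B after 5-FU and 75.0% to 77.6% in control. The ratio of PDS5B to PDS5A overlapped between the groups, at 0.332 to 0.362 after 5-FU and 0.289 to 0.333 in control (log2 difference 0.14; exact two-sided permutation p = 0.2, also after adjustment over the 6 pairs).

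The loader behaved otherwise. MAU2 (ENSG00000129933; chromosome 19, 19320681 to 19358755, plus strand), the partner that wraps the N terminus of NIPBL, rose, with 136, 113 and 89.4 CPM in the 5-FU libraries against 58.6, 64.2 and 61.4 CPM in the control libraries. Every 5-FU library lay above every control library, though the 5-FU libraries spread widely (112.5 ± 23.1 CPM after 5-FU, 61.4 ± 2.77 CPM in control; SD, n = 3 per group). The increase was 1.83-fold (log2 fold change 0.87, SE 0.15, edgeR adjusted p = 0.000279). NIPBL (ENSG00000164190; chromosome 5, 36876759 to 37066413, plus strand), which stimulates the ATPase of the ring and its movement along DNA, had 78.3, 73.3 and 80.2 CPM in the 5-FU libraries against 92.5, 85.8 and 93.5 CPM in the control libraries. Each 5-FU value was below each control value, but the difference missed the threshold (log2 fold change -0.23, 95% interval -0.46 to 0.01, edgeR adjusted p = 0.0756). Over the 10 genes the groups thus did not overlap for 9 lower and 1 higher, where 35.9% of all tested genes had all 5-FU libraries below the controls, 38.4% had them above, and 74.3% either. Of the 5239 tested genes of like level, 3120 had all 5-FU libraries below the controls and 1061 had them above. The NIPBL result turned on the settings: its sign was positive with upper-quartile factors (0.13) and with a mean count of at least 50 (0.02), and it was called lower in 6 of 18 alternatives, among them without control replicate 2 (log2 fold change -0.30, edgeR adjusted p = 0.0387).

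The loader was also set against the release factor and against its own partner inside each library. The ratio of NIPBL to WAPL, loader to release factor, was 0.782, 0.625 and 0.723 in the 5-FU libraries against 0.404, 0.429 and 0.417 in the control libraries, a 1.70-fold higher ratio with no overlap (exact two-sided permutation p = 0.1; 0.12 adjusted over the 6 pairs). The ratio of NIPBL to MAU2 was 0.514, 0.580 and 0.799 in the 5-FU libraries against 1.40, 1.19 and 1.35 in the control libraries, 2.12-fold lower (exact two-sided permutation p = 0.1; 0.12 adjusted). NIPBL thus stood above MAU2 per length in each control library and below it in each 5-FU library.

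**Figure D3:**
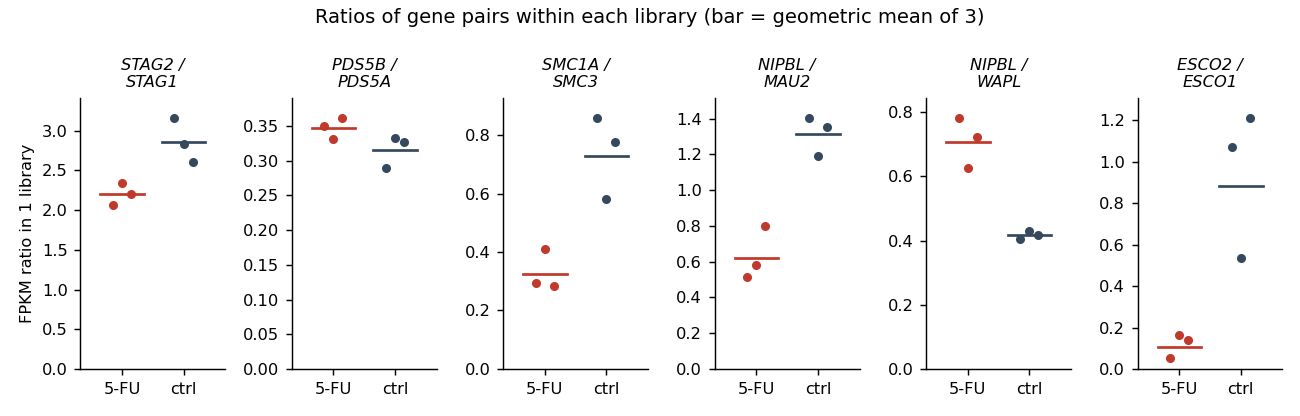
FPKM ratio of 6 gene pairs within each library, with 5-FU libraries in red left of control libraries in dark blue, each axis starting at 0 and bars at the geometric mean of 3. The groups are apart for 5 pairs and overlap for PDS5B over PDS5A.

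To show the start regions behind these contrasts, promoter windows were read from RefSeq (build GRCh38.p14; 250 bases before to 50 after the annotated start, 5′ to 3′ on the gene's strand), in which 9 of the 10 genes matched. SMC1A is shown as a strong decrease, NIPBL as the gene that did not pass, and MAU2 as the increase. The windows are chrX:53422605-53422904 (minus strand) for SMC1A, chr5:36876519-36876818 (plus strand) for NIPBL and chr19:19320579-19320878 (plus strand) for MAU2. SMC1A has another, overlapping window, chrX:53422679-53422978, and it is this other window that is set at the 5′ end of the gene as counted (53422728). Capitals mark matches on either strand to the motifs searched: the E2F-type letters TTTCCCGC or TTTGGCGC, the CHR letters TTTGAA, the CCAAT box and the ETS core CCGGAA.
SMC1A: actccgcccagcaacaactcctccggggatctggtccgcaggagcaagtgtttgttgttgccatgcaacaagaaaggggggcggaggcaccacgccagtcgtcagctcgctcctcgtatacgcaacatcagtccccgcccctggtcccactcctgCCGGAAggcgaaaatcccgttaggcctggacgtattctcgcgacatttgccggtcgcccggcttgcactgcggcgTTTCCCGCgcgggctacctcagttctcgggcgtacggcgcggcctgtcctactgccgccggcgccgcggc
NIPBL: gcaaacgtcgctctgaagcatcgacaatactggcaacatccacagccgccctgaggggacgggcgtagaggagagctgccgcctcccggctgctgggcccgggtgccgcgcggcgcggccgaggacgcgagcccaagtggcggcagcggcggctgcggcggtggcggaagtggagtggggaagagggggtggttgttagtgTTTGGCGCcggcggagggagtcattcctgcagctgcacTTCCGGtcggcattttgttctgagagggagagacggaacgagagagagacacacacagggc
MAU2: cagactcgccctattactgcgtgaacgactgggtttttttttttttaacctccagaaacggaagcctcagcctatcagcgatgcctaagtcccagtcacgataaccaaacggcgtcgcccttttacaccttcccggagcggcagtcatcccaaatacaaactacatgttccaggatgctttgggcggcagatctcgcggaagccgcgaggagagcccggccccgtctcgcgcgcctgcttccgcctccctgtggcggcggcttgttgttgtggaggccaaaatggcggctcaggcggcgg
In the windows shown, the E2F-type letters begin 20 bases before the start used for the SMC1A window (TTTCCCGC). They begin 49 bases before the start used for the NIPBL window (TTTGGCGC). Those of SMC1A lie inside the gene as counted, whose 5′ end is 53422728. The MAU2 window holds none of the motifs searched. MAU2 as counted starts within this window, at 19320681, so fewer than 250 bases before that start were searched. The other SMC1A window holds CCGGAA but no E2F-type letters. Of 34943 promoter windows, 1.62% hold TTTCCCGC and 0.65% hold TTTGGCGC. Among the 9 matched genes TTTCCCGC was present for SMC1A and STAG1 and TTTGGCGC for NIPBL and STAG2. Here a gene counts if any of its windows matches, while the shares are per window, so the 2 are not like for like. SMC1A and STAG2 have more than 1 window, and TTTGGCGC of STAG2 lies only in chrX:123961808-123962107. TTTGAA occurs in 15.2% of windows and was present for SMC3 and PDS5B, the CCAAT box occurs in 34.6% and was present for 5 of the 9, and CCGGAA occurs in 17.2% and was present for NIPBL, SMC1A and STAG1. Genes with and without each motif were thus found among the decreases, and a match of letters does not show that a factor binds there.

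The NIPBL window also spans the start of a divergent transcript, NIPBL-DT (ENSG00000285967; chromosome 5, 36864425 to 36876700, minus strand), annotated 59 bases from the NIPBL start; it was added after its values were seen, as a description. NIPBL-DT, a long noncoding RNA, had 45.9, 39.1 and 42.7 CPM in the 5-FU libraries against 24.6, 26.9 and 24.2 CPM in the control libraries, 1.69-fold higher, and the groups did not overlap. Its ratio to NIPBL in FPKM was 1.06, 0.963 and 0.960 in the 5-FU libraries and 0.480, 0.567 and 0.467 in the control libraries. The annotated exons of NIPBL and NIPBL-DT share no bases.

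Ordered by level per length, the genes drew closer together after 5-FU. The highest over the lowest FPKM was 4.24, 4.03 and 4.30 in the 5-FU libraries and 9.31, 8.51 and 10.0 in the control libraries. In the 5-FU libraries SMC3 led at 13.1 ± 2.12 FPKM, and PDS5B was last at 3.13 ± 0.458 FPKM (SD, n = 3). MAU2 at 9.44 ± 1.66, PDS5A at 9.01 ± 1.17, RAD21 at 8.49 ± 0.893, WAPL at 8.21 ± 0.895 and STAG2 at 7.67 ± 0.413 FPKM came next, each overlapping its neighbour in that order. NIPBL at 5.79 ± 0.296 FPKM stood apart from both neighbours, and SMC1A at 4.29 ± 0.880 FPKM overlapped STAG1 at 3.49 ± 0.215 FPKM, which overlapped PDS5B.

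In the control libraries RAD21 was first at 53.1 ± 4.40 FPKM and SMC3 second at 30.9 ± 3.42 FPKM, each apart from the next. SMC1A at 22.8 ± 4.70, PDS5A at 21.4 ± 2.08, WAPL at 18.05 ± 1.57 and STAG2 at 17.9 ± 0.934 FPKM overlapped in turn. NIPBL at 7.51 ± 0.469, PDS5B at 6.75 ± 0.570 and STAG1 at 6.27 ± 0.611 FPKM formed a lower group, and MAU2 was last at 5.71 ± 0.183 FPKM in each control library. RAD21 thus ranked 3 to 5 after 5-FU and 1 in control, and MAU2 ranked 2 to 6 after 5-FU and 10 in control. FPKM divides by the union of all annotated exons (from 4275 bases for SMC3 to 13212 for PDS5B), so a gene whose long exons are little used reads too low. The ratio between the groups is not touched by this if exon use is alike in both, which was not tested. The authors' constant was 1.07 to 1.16 times the total count in 5-FU libraries and 0.892 to 0.986 times in control libraries, so an FPKM ratio of 5-FU to control is lower than the ratio of counts over totals; orders and ratios inside a library do not depend on it.

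**Figure D4:**
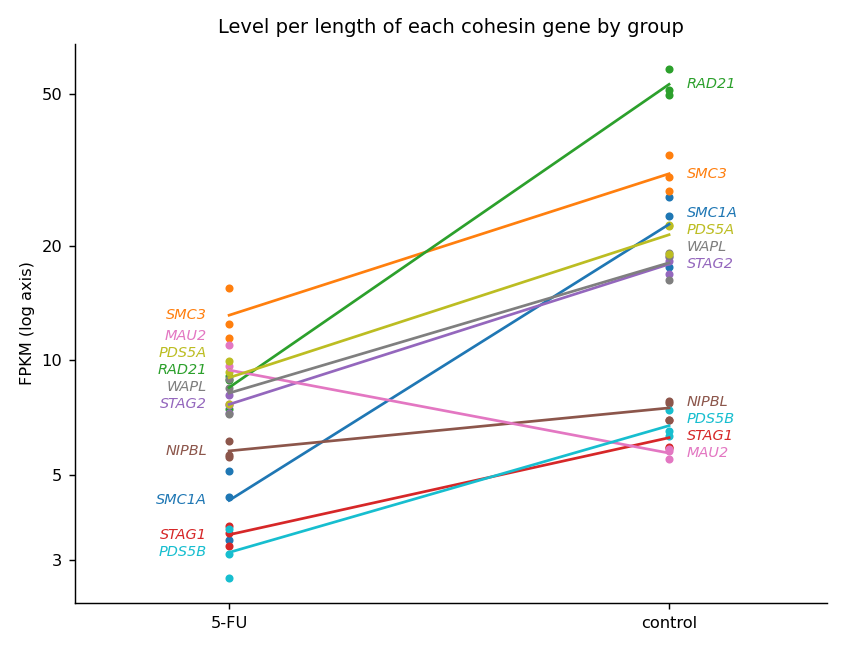
FPKM of each cohesin gene in the 5-FU libraries (left) and the control libraries (right) on a log axis, with points for libraries and lines joining group means. RAD21 and SMC1A have the steepest lines, and MAU2 alone is higher on the 5-FU side.

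Genes that establish cohesion were set beside the ring. Of 11 in that list 9 fell, 1 rose and ESCO1 was not called (8 fell and 2 rose with upper-quartile factors or at a mean count of at least 50, where DDX11 was no longer called lower and ESCO1 was called higher); the median log2 fold change was -1.90. Sororin, CDCA5, fell to 4.28, 10.5 and 9.37 CPM in the 5-FU libraries, against 97.4, 51.9 and 99.4 CPM in the control libraries (log2 fold change -3.36, SE 0.32, edgeR adjusted p = 5.31e-06). ESCO2, the acetyltransferase active in S phase, had 2.70, 6.78 and 6.86 CPM in the 5-FU libraries and 46.7, 22.6 and 52.8 CPM in the control libraries (log2 fold change -2.90, SE 0.36). ESCO1, which acts through the cell cycle, had 32.7, 27.8 and 32.2 CPM in the 5-FU libraries and 28.8, 28.0 and 28.9 CPM in the control libraries, and the groups overlapped (log2 fold change 0.11, SE 0.12, edgeR adjusted p = 0.418). The ratio of ESCO2 to ESCO1 was 0.0548, 0.162 and 0.141 in the 5-FU libraries and 1.07, 0.534 and 1.21 in the control libraries (exact two-sided permutation p = 0.1; 0.12 adjusted over the 6 pairs). The fork protection factor TIMELESS (-2.07) and the clamp loader subunits DSCC1 (-2.94) and CHTF8 (-1.41) fell too. HDAC8, the deacetylase that recycles SMC3, was the 1 that rose, with 38.2, 27.9 and 28.97 CPM in the 5-FU libraries and 13.4, 14.0 and 12.3 CPM in the control libraries (log2 fold change 1.26, SE 0.15, edgeR adjusted p = 2.66e-05).

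The 6 genes that protect or cleave cohesin at mitosis all fell, at a median log2 fold change of -3.25. PLK1, the kinase that strips cohesin from chromosome arms, fell 14.0-fold (-3.81, SE 0.26), and securin, PTTG1, the inhibitor of separase, fell 13.1-fold (-3.71, SE 0.22). HASPIN (-3.17, SE 0.25), a histone kinase of centromeres, and the shugoshin SGO2 (-2.69, SE 0.27) fell as well. Of 3 tested meiotic cohesin genes STAG3 was the 1 called, and RAD21L1 had too few counts to be tested. CTCF, the zinc finger protein that stops cohesin at loop anchors, had 38.1, 39.3 and 38.5 CPM in the 5-FU libraries and 115, 97.8 and 129 CPM in the control libraries (log2 fold change -1.56, SE 0.13, edgeR adjusted p = 2.38e-06). ZNF143, named with it, fell by 0.49 on the log2 scale (SE 0.15, edgeR adjusted p = 0.0114), a call lost with upper-quartile factors and at a mean count of at least 50.

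The other SMC complexes were set beside cohesin as well. All 8 condensin genes fell, at a median log2 fold change of -2.79, with NCAPD2 (-2.68), SMC4 (-2.90), NCAPG2 (-2.90) and NCAPH (-3.36) of smallest p. Of 7 genes of the SMC5/6 complex, which acts in DNA repair, 4 fell (NSMCE1, NSMCE2, NSMCE3 and NSMCE4A, between -1.21 and -0.78). Of the rest 1 rose (EID3, 2.45, SE 0.23, from a low level of 29 to 44 counts per control library) and 2 were not called. The median of the 7 was -0.78. Set by their SMC subunits, named here after the values were seen, SMC2 and SMC4 of condensin had log2 fold changes of -2.36 and -2.90, SMC1A and SMC3 of cohesin -2.26 and -1.09, and SMC5 and SMC6 -0.22 and -0.25. Differences between these lists were not tested. For the counts of these lists and of those in the paragraphs above, 33.9% of all tested genes were called lower and 36.3% higher. Of tested genes at the level of the cohesin genes, 57.3% were lower and 18.5% higher. Some genes of the lists lie below or above that level, so these last shares are not matched to them. Antisense neighbours overlap 25.6% of the exonic bases of SMC4, 15.3% of HASPIN, 13.0% of CTCF, 12.9% of CHTF8 and 12.5% of PLK1.

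**Figure D5:**
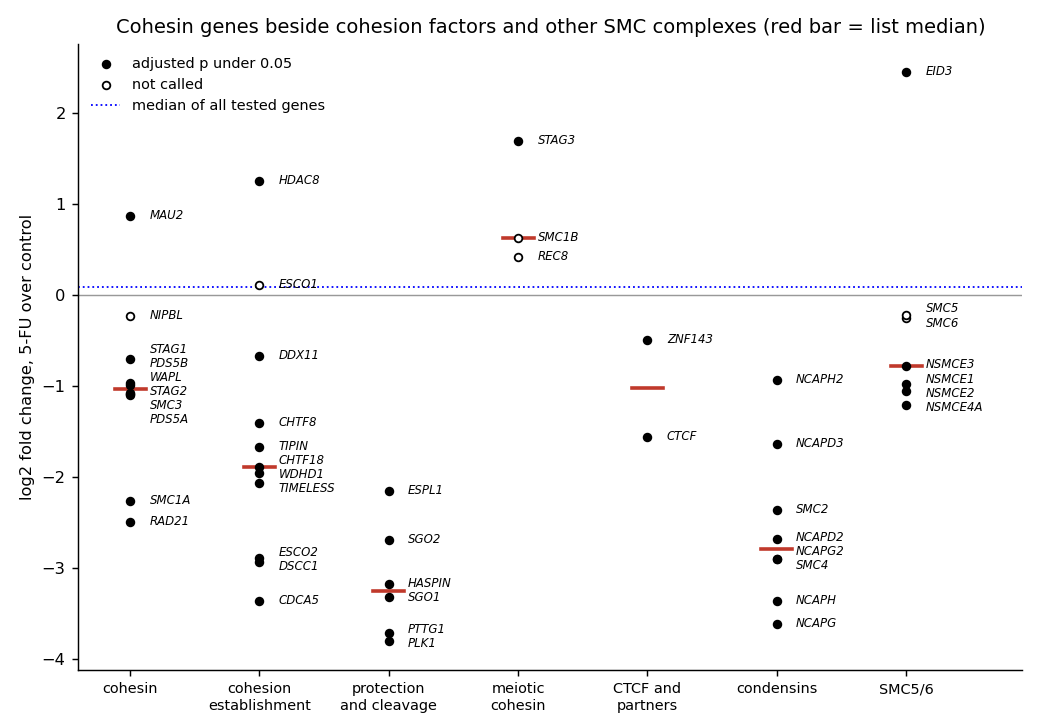
Log2 fold change of 5-FU over control for the cohesin genes and 6 related lists, with filled points for an adjusted p under 0.05, open points for genes not called, red bars at list medians and a dotted line at the median of all tested genes. The list medians run from -3.25 for protection and cleavage to 0.63 for meiotic cohesin, with -1.04 for cohesin.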

How the data were processed

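RNA was sequenced from 3 libraries of 5-FU treated and 3 of untreated HCT-8 cells. Per the labels' protocols, RNA was taken with TRIzol and the library kit was NEBNext Ultra RNA, a name without a strand-marking step. Per the submitters' processing notes, the build was GRCh38 and the tools included featureCounts 1.5.0-p3, HISAT2 2.0.5 and DESeq2 1.16.1; the sources used here do not give the settings for strand and ambiguous reads. As tested, the deposited table of gene counts holds whole-number counts, and the identifiers and positions of all 58735 genes equal GENCODE 29. The deposited FPKM are, tested on the values, the count over exonic length and over 1 constant per library.

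Groups follow the treatment label. Counts were fitted over all 6 libraries with edgeR 4.0.16 in R 4.3.3 (filterByExpr at minimum count 10 and total 15, TMM factors, group as sole term), and calls need a Benjamini-Hochberg adjusted p under 0.05 over 19771 genes. SE is the coefficient over the root of the F statistic. The script was tested on simulated data. Ratios of 6 pairs used FPKM of 1 library and an exact two-sided permutation test. Same-group libraries were distinct: chi-square per gene between them ran from 9.02 to 23.4, where a repeated library gives about 1. Beyond the 10 genes, the rule names up to 4 genes per list and direction of smallest adjusted p among those called, companion genes of a pair and the most abundant marker of each marker list. Members, lists and pairs were chosen with earlier results of these data known; 1 gene of the CTCF list is not reported here and was taken out of that list. Alternatives were other factors, filters and tests (DESeq2 1.42.0, limma 3.58.1), mitochondrial genes left out and the replicate number as a block. Others left out each library in turn or used log2(FPKM + 1) or log2(FPKM + 0.1).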

Additional observations from a re-analysis of the deposited data

How the results depend on the processing

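Of 180 alternative fold changes of the 10 cohesin genes, 172 kept their direction and their side of the threshold; the other 8 were all of NIPBL, called lower in 6 (adjusted p from 0.0144 to 0.0387) and reversed, uncalled, in 2. Over the alternatives RAD21 ranged from -2.65 to -2.14, SMC1A from -2.44 to -1.90, STAG1 from -0.85 to -0.34 and MAU2 from 0.62 to 1.23 in log2 fold change. On the log2(FPKM + 1) scale, which shrinks low genes, values moved by over 1.5 times in fold for ESCO2 (-1.89), HASPIN (-2.37), SGO2 (-2.06), STAG3 (0.97), HDAC8 (0.52) and EID3 (1.64), all still called. Among the cohesin genes and the companion genes named, some values changed sign, none of them called. They were those of NIPBL, SMC5 and SMC6 with upper-quartile factors (0.13, 0.14 and 0.11) and of NIPBL and SMC5 at a mean count of at least 50 (0.023 and 0.033). ESCO1 changed sign without the low-count filter (-0.035), in DESeq2 (-0.034) and on the FPKM table (-0.031, -0.036 and -0.031 for the 3 settings). Of the epithelial markers, KRT18 (0.162) and VIL1 (0.089) turned positive with upper-quartile factors, uncalled, and KRT18 also at a mean count of at least 50 (0.053). CDH1 was called higher in the same 2 settings (0.517 and 0.408), and VIL1 lower without 5-FU replicate 1 (-0.677) and without the low-count filter (-0.425). The cause of these changes was not tested. SMC5 was called lower in 5 of 18 alternatives and SMC6 in 7, while ESCO1 was called higher in 2. The count of all genes called higher was 7171, and 4320 or 4268 on the FPKM table with its filter (pseudocount 1 or 0.1). Meiotic cohesin genes called higher, 1, became 3 with upper-quartile factors and 2 with plain library totals, at a mean count of at least 50, or without 5-FU replicate 1 or control replicate 1; with upper-quartile factors and at that mean count, 2 cohesion establishment genes were higher, against 1, 8 were lower, against 9 (DDX11, adjusted p 0.1132 and 0.05546), and 1 gene of the CTCF list was lower, against 2. All 48 alternative values of the ratios kept their direction, but most of this was fixed in advance. Raw counts and the replicate block give nearly the main difference by construction. Where the groups do not overlap, leaving out 1 library cannot turn the sign. Only the PDS5B to PDS5A ratio with a library left out could have reversed. Leaving out a library also raises the smallest possible p to 0.2. Same-numbered libraries did not deviate together (r = -0.072, -0.202 and 0.06 over genes, with 5-FU replicate 1 closest to control replicate 2 at 0.168). This cannot show whether they were handled together, and the labels do not say. With the replicate number as a block 6863 genes were higher and 6380 lower, and no call of the 10 genes changed. Intervals cover these 6 libraries only.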
